A study of Mus musculus with 2 samples.

Results

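In cultures of mouse embryonic stem cells, 8 genes of the unfolded protein response and the integrated stress response were followed: Atf4, Ddit3, Trib3, Chac1, Asns, Hspa5, Xbp1 and Herpud1. They were taken by gene symbol, with earlier results of these data known, and are 8 of the 32285 genes in the deposited tables. The cells belong to the inbred strain C3H/HeSn-Paf/J. Lines were derived from embryos with XX, XO or XY sex chromosomes, 3 independent lines of each kind, and were mixed into 1 pool. Cells of this pool were sequenced at an early passage (time 1) and again 10 passages later (time 2). In both libraries cells were grown on gelatin and irradiated mouse fibroblasts (feeders) in serum with leukaemia inhibitory factor, and were taken off the plate with Accutase. Each time point has 1 library. Single cells are not assigned to lines here, so a class of cells may hold cells of 1 line or of several, and no test between time points or classes was made. Differences are read against a fixed size, 1.5-fold, and against the share of all genes that passed it. Intervals are 95% and cover counting error only.

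The integrated stress response begins when kinases that sense amino acid shortage, misfolded protein, haem shortage or viral RNA phosphorylate the initiation factor eIF2. General translation slows, while the mRNA of the transcription factor ATF4 is translated more. ATF4 then raises genes of amino acid supply and of stress signalling. The unfolded protein response acts in the endoplasmic reticulum (ER) through PERK, one of these kinases, and through ATF6 and IRE1, the latter by splicing the mRNA of Xbp1. Both ATF4 protein and spliced Xbp1 are set after transcription, so the counts here, which do not separate spliced from unspliced Xbp1, measure mRNA level and not the activity of either pathway.

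Among the members, Atf4, Ddit3 (which encodes CHOP) and Xbp1 encode transcription factors. Trib3 encodes a pseudokinase that binds ATF4 and CHOP, Chac1 an enzyme that degrades glutathione, and Asns the asparagine synthetase. Hspa5 encodes BiP, the main HSP70 chaperone of the ER, and Herpud1 encodes a membrane protein of ER-associated degradation. The 8 loci lie on 6 chromosomes of GRCm38, with gene models of GENCODE M21. Hspa5, Chac1 and Trib3 are on chromosome 2, at 34771970 to 34777547 and 119351229 to 119354381 on the plus strand and at 152337422 to 152344032 on the minus strand. Asns lies on chromosome 6 at 7675169 to 7693254 on the minus strand, and Herpud1 on chromosome 8 at 94386438 to 94395377 on the plus strand. Ddit3 lies on chromosome 10 at 127290774 to 127296288, Xbp1 on chromosome 11 at 5520659 to 5525893 and Atf4 on chromosome 15 at 80255184 to 80257541, all 3 on the plus strand. The Ddit3 locus overlaps Mars on the other strand. A further feature named Ddit3 lies inside this locus on the same strand (127290829 to 127293753). It had 0 UMIs and is not used, and the effect of the overlap on the Ddit3 counts was not tested.

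The promoters of the members show which of the known response elements are written in them, and 5 of the 8 held a match to one of 3 searched motifs. The C/EBP-ATF response element, TGATGNAA, through which ATF4 acts, was found in Trib3, Chac1, Asns and Herpud1. The ER stress response element, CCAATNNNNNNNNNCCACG, was found in Hspa5. The second ER stress response element, ATTGG and CCACG with 1 base of any kind between them, was found in Herpud1, the member that held both kinds. Both strands were searched from 250 bases before to 50 bases after the RefSeq transcription start (GRCm38.p6, all 8 matched by symbol). Among 32851 such windows of all genes, 3.97% held the first motif, 0.119% the second and 0.0365% the third. The 5 windows are printed 5′ to 3′ on the strand of the gene with the matches in capitals, and no match overlaps another. They lie at chr6:7693160-7693459 (minus strand), chr2:119350992-119351291 (plus), chr2:152344011-152344310 (minus), chr2:34771840-34772139 (plus) and chr8:94386179-94386478 (plus).
Asns: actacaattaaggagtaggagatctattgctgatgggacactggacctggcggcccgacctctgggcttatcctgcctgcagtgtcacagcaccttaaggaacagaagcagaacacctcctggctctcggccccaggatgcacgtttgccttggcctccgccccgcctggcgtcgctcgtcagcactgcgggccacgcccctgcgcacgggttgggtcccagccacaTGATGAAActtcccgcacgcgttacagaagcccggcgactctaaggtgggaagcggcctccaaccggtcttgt
Chac1: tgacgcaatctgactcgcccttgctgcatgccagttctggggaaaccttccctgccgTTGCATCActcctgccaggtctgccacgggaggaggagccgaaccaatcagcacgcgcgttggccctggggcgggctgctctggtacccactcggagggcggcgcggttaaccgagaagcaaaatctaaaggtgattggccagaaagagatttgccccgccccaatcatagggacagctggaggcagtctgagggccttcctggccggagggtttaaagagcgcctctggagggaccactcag
Trib3: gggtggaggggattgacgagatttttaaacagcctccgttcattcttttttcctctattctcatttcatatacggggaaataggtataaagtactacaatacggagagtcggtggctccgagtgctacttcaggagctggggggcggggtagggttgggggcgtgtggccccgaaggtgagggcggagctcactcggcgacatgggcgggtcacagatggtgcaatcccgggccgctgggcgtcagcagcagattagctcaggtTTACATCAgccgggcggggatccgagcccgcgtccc
Hspa5: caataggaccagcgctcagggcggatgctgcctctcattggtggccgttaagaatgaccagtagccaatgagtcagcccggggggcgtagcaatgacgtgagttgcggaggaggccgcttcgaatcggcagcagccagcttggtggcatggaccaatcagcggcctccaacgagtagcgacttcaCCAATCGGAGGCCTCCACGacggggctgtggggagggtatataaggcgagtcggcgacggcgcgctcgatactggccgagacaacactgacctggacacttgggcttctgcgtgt
Herpud1: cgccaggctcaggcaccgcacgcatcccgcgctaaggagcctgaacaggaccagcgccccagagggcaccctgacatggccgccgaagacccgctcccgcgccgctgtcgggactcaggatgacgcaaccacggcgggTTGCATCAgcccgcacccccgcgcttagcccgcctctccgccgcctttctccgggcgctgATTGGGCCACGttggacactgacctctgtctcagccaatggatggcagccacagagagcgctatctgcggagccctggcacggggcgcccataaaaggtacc

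The match in Asns lies 23 to 16 bases before the start, and that in Chac1, on the opposite strand, 193 to 186 bases before it. In Trib3 the match is on the opposite strand and covers bases 15 to 22 counted from the RefSeq start. The match in Hspa5 runs from 65 to 47 bases before the start. In Herpud1 the C/EBP-ATF match (opposite strand) spans bases -112 to -105 and the ER stress match bases -52 to -42. The RefSeq starts used here differ from the ends of the GENCODE M21 spans given above. By those spans the Trib3 match lies before the gene, and the Asns and Hspa5 matches lie inside it. No match was found in the windows of Atf4, Ddit3 and Xbp1. A match is a string of letters, and binding was not measured.

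After filtering, 23225 cells remained at time 1 and 25480 at time 2, with a median of 43562 and 50314 unique molecular identifiers (UMIs, counted molecules) per cell. The libraries shared 160 cell barcodes. Clusters are called by their leading gene. The Rhox9-led, Jam2-led and Gm46332-led clusters had none of the fixed markers of other cell types in their top 10 genes and are pooled as pluripotent stem cell-like: 8408 cells at time 1 (36.2%) and 13697 at time 2 (53.8%). The Spry2-led cluster (6103 cells at time 1) and the Nanos3-led cluster (6163 at time 2) were left unnamed and out of this group, although they may hold pluripotent cells. The Spry2-led cells were left out for lower depth (median 28341 UMIs at time 1) and for what was judged more background RNA than in other clusters. Levels are given as CPM, UMIs of the gene per 1000000 UMIs, summed over the cells. The 12 pluripotency markers summed to 11547 CPM in the group at time 1 and 7728 CPM at time 2, against 918 and 850 CPM in the S100a4-led cells. They summed to 8573 CPM in the Spry2-led cells of time 1 and 7339 CPM in the Nanos3-led cells of time 2. With the Spry2-led cells the group would hold 14511 cells at time 1, and with the Nanos3-led cells 19860 at time 2. The clusters in this group differ between libraries. The Rhox9-led cluster gave 7113 of its cells at time 1 and the Gm46332-led cluster 10728 at time 2, while the Jam2-led cluster had 1183 and 2048. Barcodes under 2000 UMIs, taken here as free RNA and fragments, carried all 8 members, from 6.77 CPM for Chac1 to 315 CPM for Atf4 at time 1, and the part of free RNA in the levels given here was not tested. No cell class in these cultures is known to lack these genes, so no background share of cells could be set beside the shares below.

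Over 24 sums, one for each cluster of at least 50 cells in each library, Atf4 varied least and Ddit3 most. The highest cluster exceeded the lowest 1.71-fold at time 1 and 1.84-fold at time 2 for Atf4, and 10.9-fold and 10.5-fold for Ddit3. The ranges of Hspa5 (4.04-fold and 5.43-fold), Xbp1 (3.49-fold and 7.24-fold), Herpud1 (2.89-fold and 6.33-fold) and Trib3 (3.40-fold and 7.55-fold) were wider at time 2, where the Srgn-led cells could be measured. Those of Chac1 (3.58-fold and 2.94-fold) and Asns (2.53-fold and 2.46-fold) were not. At time 1 the lowest Hspa5 and Atf4 were those of the Krt18-led cluster, 70 cells with a median of 352474 UMIs. Hspa5 stood at 94.9 CPM there and at 191 CPM in the next lowest cluster, and Atf4 at 142 and 153 CPM. Of 192 contrasts of a member in a cluster with the other cells of its library, 28 were at least 1.5-fold higher and 16 at least 1.5-fold lower, together 22.9%. Over all genes of at least 5 CPM the same contrasts gave 22.2%, so that the members as a set passed about as often as other genes. Hspa5, Chac1, Asns, Herpud1 and Ddit3 were among the variable genes used to cluster the cells, and clusters are described here, not tested.

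**Figure D1:**
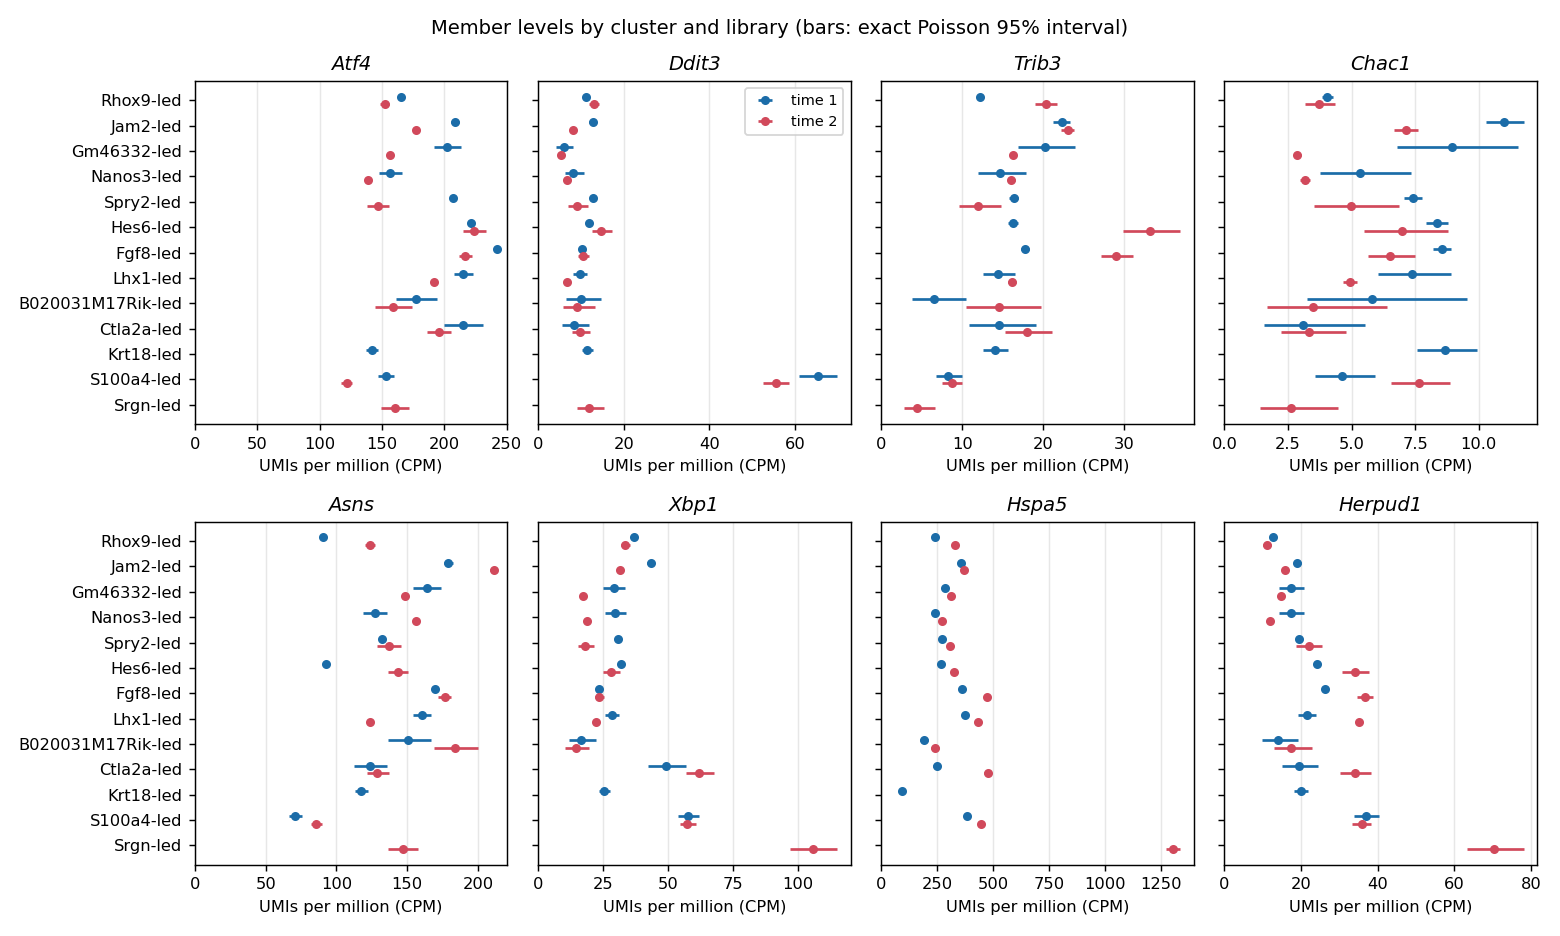
Level of each member in CPM (x axis, each panel with its own scale from 0) in every cluster of at least 50 cells (y axis), at time 1 in blue and time 2 in red, with exact Poisson 95% intervals that are often narrower than the points. Ddit3 stands out in the S100a4-led feeder fibroblast-like cells of both libraries, and Hspa5, Xbp1 and Herpud1 in the Srgn-led cells of time 2.

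The primitive and parietal endoderm-like cells (Srgn-led, 81 cells, usable at time 2 only) had the highest Hspa5, Xbp1 and Herpud1 of all clusters. Hspa5 stood at 1305 CPM (interval 1274 to 1337) against 334 CPM in the other cells, Xbp1 at 105.6 against 21.2 CPM, and Herpud1 at 70.4 against 18.5 CPM. On the log2 scale of CPM plus 1 these are differences of 1.964, 2.26 and 1.88. All 9 markers of primitive and parietal endoderm, an extraembryonic tissue that secretes basement membrane, stood above 5 CPM in these cells. Ddit3 was 0.64 higher on the log2 scale (12 against 7.32 CPM). Trib3, Chac1, Asns and Atf4 did not share this direction. Chac1 was lowest of all clusters there (2.60 CPM), with an interval that overlapped the next. Trib3 was also lowest of all clusters there, at 4.40 CPM (22 UMIs) against 17.2 CPM, a log2 difference of -1.75. Asns (146.8 against 150.0 CPM) and Atf4 (160.4 against 161.6 CPM) were near the level of the other cells. In this contrast 41.8% of all genes passed 1.5-fold in either direction, against 5 of the 8 members.

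The genes listed beside the members were read list by list in the Srgn-led cells. Among 29 ER sensors and chaperones, 23 were at least 1.5-fold higher and 0 lower, with a median log2 difference of 1.45. Of 18 genes of ER-associated degradation, 15 were higher and 0 lower (median 1.33), while the median over all genes was 0.06. Dnajc3, a co-chaperone of BiP that also restrains PERK, stood at 251 against 31.1 CPM, Sdf2l1, a partner of BiP cochaperones, at 132 against 24.8 CPM, and Sec24d, a coat protein of vesicles leaving the ER, at 27.4 against 3.03 CPM. Among 40 ATF4 targets, 6 were higher and 13 lower, with a median of -0.18. Atf3, a stress-induced transcription factor, was higher (151 against 11.2 CPM). Nupr1, a small stress-induced nuclear protein, was lower (7.60 against 56.8 CPM), as was Cth, which makes cysteine (5.00 against 40.9 CPM).

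Feeder fibroblast-like cells (S100a4-led, 206 and 390 cells) had the highest Ddit3 of all clusters in both libraries. The level was 65.3 CPM at time 1 (interval 61.0 to 69.8) against 11.5 CPM in the other cells, and 55.6 CPM at time 2 (52.6 to 58.7) against 6.57 CPM, log2 differences of 2.41 and 2.90. Xbp1 was higher in both libraries (57.8 and 57.4 CPM, log2 differences of 0.83 and 1.42), and so was Herpud1 (36.9 and 35.8 CPM, 0.89 and 0.93). Asns was the lowest of all clusters in both (70.7 and 85.7 CPM, log2 differences of -0.80 and -0.81), and Trib3 was lower by 0.84 and 0.92. Chac1 went the other way at time 2, where it was highest of all clusters (7.64 CPM) and past 1.5-fold, with an interval that overlapped the next. At time 1 it ranked 10 of 12 clusters (4.62 CPM). These cells differ from stem cells throughout: 66.1% of all genes passed 1.5-fold at time 1 and 67.8% at time 2, against 5 and 6 of the 8 members. Fibroblast markers summed to 6539 CPM in them at time 1 and 4433 CPM at time 2. The early response genes that dissociation of tissue is known to raise also stood higher, 9 of 15 at time 1 and 10 of 14 at time 2 past 1.5-fold, and their part in the Ddit3 level was not tested. Nupr1 reached 839 CPM at time 1 and 783 CPM at time 2.

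Within the stem cells, the Jam2-led cluster held the highest Asns of all clusters in both libraries, at 179 CPM and 211 CPM. This cluster is also led by Tbx3 and Klf4, factors of naive pluripotency. Chac1 was 0.66 and 0.84 higher there on the log2 scale (11.0 against 6.61 CPM and 7.12 against 3.54 CPM), and Asns 0.58 and 0.54 higher, just under 1.5-fold. Trib3 stood at 22.3 and 23.0 CPM, 0.54 and 0.45 above the other cells. Xbp1 was 0.44 and 0.60 higher. Early response genes were lower in this cluster, 8 of 13 past 1.5-fold at time 1 and 5 of 13 at time 2, and their part was not tested. Of the 8 members, 1 passed 1.5-fold at time 1, where 17.9% of all genes did, and 2 at time 2, where 15.8% did. Of 41 ATF4 targets tested at time 1 in this cluster, 7 were higher and 3 lower, and of 38 at time 2, 9 were higher and 0 lower.

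The Rhox9-led cluster, the largest of time 1, had lower levels of several of the same genes there. Chac1 (4.05 against 8.28 CPM), Herpud1 (12.8 against 22.9 CPM) and Asns (90.2 against 139 CPM) were each at least 1.5-fold lower, by 0.88, 0.80 and 0.62 on the log2 scale. That is 3 of 8 members, beside 12.3% of all genes. Of 39 ATF4 targets, 11 were lower and 0 higher, with a median of -0.35. Early response genes were lower as well, 9 of 13 past 1.5-fold, and their part was not tested. At time 2, when this cluster held 921 cells, Ddit3 stood at 13 against 7.16 CPM, Xbp1 at 33.6 against 21.1 CPM and Herpud1 at 11.1 against 18.8 CPM, 3 of 8 members past 1.5-fold beside 12.2% of all genes.

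Herpud1 was also high in primed epiblast-like cells and in some unnamed clusters. In the primed epiblast-like cells (Fgf8-led) it stood at 26.2 CPM at time 1 and 36.6 CPM at time 2, log2 differences of 0.53 and 0.97 from the other cells. In the unnamed Lhx1-led cluster of time 2, whose leading genes include markers of mesendoderm and of primed epiblast, it stood at 35.2 against 15.4 CPM (1.14). In the unnamed Hes6-led cluster of time 2 it stood at 34.1 against 18.5 CPM (0.85), together with Trib3 (33.2 CPM, 0.93), Ddit3 (14.7 CPM, 0.93) and Chac1 (6.99 CPM, 0.73). Members past 1.5-fold numbered 1 in the Fgf8-led cells at time 1 (Asns) beside 18.7% of all genes, and 3 at time 2 (Trib3, Chac1 and Herpud1) beside 24.6%. They numbered 1 in the Lhx1-led cells beside 15.3% and 4 in the Hes6-led cells beside 10.6%. Atf4 was highest in these states too, in the Fgf8-led cells at time 1 (242 CPM) and in the Hes6-led (224 CPM) and Fgf8-led cells (217 CPM) at time 2, whose intervals overlap. Early response genes past 1.5-fold numbered 8 of 13 in the Fgf8-led cells at time 1 and 9 of 13 at time 2, all of them higher, and their part was not tested.

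The order of clusters was read with intervals. For Ddit3 the S100a4-led cells were apart from the next cluster in both libraries. For Hspa5, Xbp1 and Herpud1 the Srgn-led cells were apart from the next at time 2. For Chac1 the intervals of neighbouring clusters at the top of the order overlapped in both libraries. At time 1 it stood at 11.0 CPM in the Jam2-led, 8.94 CPM in the Gm46332-led and 8.69 CPM in the Krt18-led cells. At time 2 it stood at 7.64 CPM in the S100a4-led, 7.12 CPM in the Jam2-led and 6.99 CPM in the Hes6-led cells. When the members and all pathway genes were left out of the clustering, the cluster with the highest Ddit3 in both libraries was made up of S100a4-led cells in 100% of its cells. The cluster with the highest Hspa5, Xbp1 and Herpud1 at time 2 was made up of Srgn-led cells in 100%. The cluster with the highest Asns was made up of Jam2-led cells in 91.7% at time 1 and 88.3% at time 2. The Hes6-led and Fgf8-led cells of time 2 were less well recovered. The cluster with the highest Trib3 (29.3 CPM, 118 cells) was 38.1% Hes6-led, and that with the highest Atf4 (436 cells) was 57.8% Fgf8-led.

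The comparison of time 2 with time 1 asks what 10 further passages went with in the stem cells. Summed over all stem cells, Ddit3 and Xbp1 were lower at time 2, and the other members differed by less than 1.5-fold. The sums rest on different clusters, mostly Rhox9-led at time 1 and Gm46332-led at time 2, and within the Rhox9-led cluster Ddit3 was higher at time 2 (13.0 against 11.3 CPM). Ddit3 stood at 11.5 CPM at time 1 (interval 11.2 to 11.8) and 6.13 CPM at time 2 (5.96 to 6.30), a log2 difference of -0.81. Xbp1 stood at 38.0 CPM (37.4 to 38.6) and 20.3 CPM (20.04 to 20.65), a log2 difference of -0.87. Of all 8832 genes of at least 5 CPM, 13% were at least 1.5-fold lower at time 2 and 6.61% at least 1.5-fold higher, against 2 and 0 of the 8 members. Chac1, whose mean lies under 5 CPM, was at 5.29 and 3.56 CPM (-0.46). Asns was at 106.2 and 156.6 CPM, a log2 difference of 0.56 that lies just under 1.5-fold. Trib3 (13.99 and 17.56 CPM, 0.31) and Hspa5 (260.1 and 320.6 CPM, 0.30) were slightly higher at time 2. Atf4 (173.3 and 159.8 CPM, -0.12) and Herpud1 (13.9 and 14.6 CPM, 0.07) were close to equal in these sums, although both were lower at time 2 within each stem cell cluster. The median over all genes was -0.05.

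**Figure D2:**
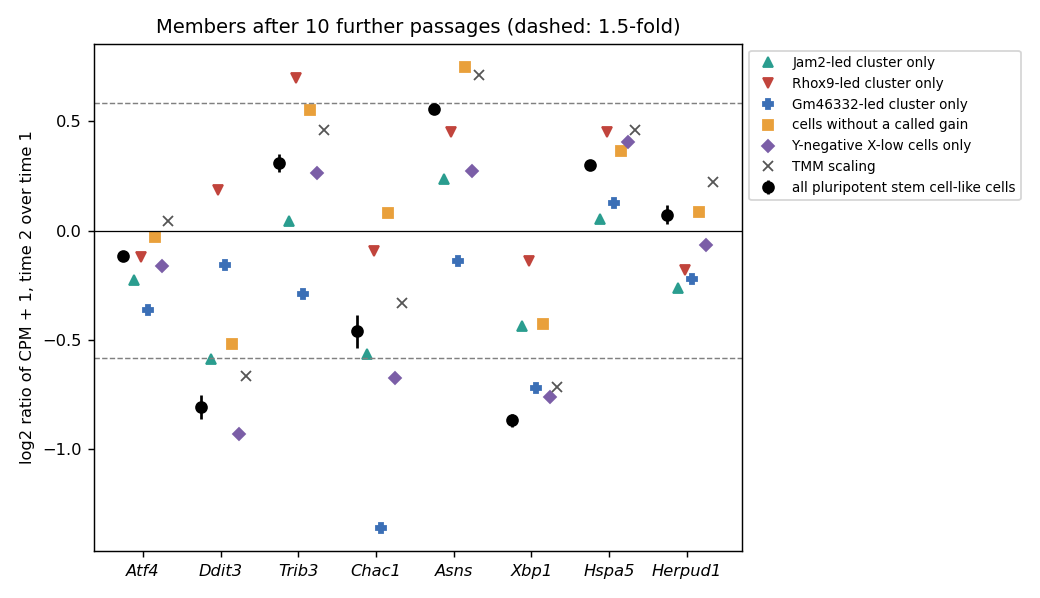
Log2 ratio of CPM plus 1, time 2 over time 1 (y axis), for each member (x axis), in all pluripotent stem cell-like cells (black, with 95% counting intervals) and under 6 other choices of cells or scaling. Dashed lines mark 1.5-fold; Xbp1 is below 0 under all 7, while Ddit3 is above 0 in the Rhox9-led cluster and Asns below 0 in the Gm46332-led cluster.

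The sizes, and for some members the directions, of these differences depended on which stem cells were compared. The libraries differ in the clusters, X dosage and chromosome gains of these cells. Within the Rhox9-led cluster (7113 and 921 cells) the log2 difference was 0.19 for Ddit3 (interval 0.06 to 0.31), -0.14 for Xbp1 and 0.45 for Asns, and 0.70 for Trib3, the one member past 1.5-fold there (12.2 and 20.4 CPM). Within the Gm46332-led cluster (112 and 10728 cells) it was -0.16 for Ddit3 (-0.61 to 0.30, from 39 UMIs at time 1) and -0.14 for Asns. Xbp1 (-0.72) and Chac1 (-1.36, 8.94 and 2.86 CPM) were past 1.5-fold in it. Within the Jam2-led cluster (1183 and 2048 cells) it was -0.59 for Ddit3, -0.44 for Xbp1, 0.24 for Asns and -0.57 for Chac1. In cells without a called chromosome gain (7359 and 3500) it was -0.52 for Ddit3, -0.43 for Xbp1 and 0.75 for Asns, so that Ddit3 and Xbp1 were under 1.5-fold there and Asns was past it, in the other direction. In the Jam2-led cells Ddit3 alone stayed past it. In Y-negative cells of low X dosage (2248 and 9183) it was -0.93 for Ddit3, -0.76 for Xbp1 and 0.27 for Asns. Over the 3 clusters, then, Xbp1, Atf4, Chac1 and Herpud1 were lower in each and Hspa5 was higher in each. Ddit3, Asns and Trib3 differed in direction between them. Herpud1 stood at -0.18, -0.26 and -0.22 in the Rhox9-led, Jam2-led and Gm46332-led clusters, against 0.07 in the sum. The interval held 0 for Chac1 in the Rhox9-led cluster and for Herpud1 in the Gm46332-led cluster. With TMM scaling, which moved the median over all genes from -0.05 to 0.10, Asns reached 0.71 and passed 1.5-fold. Chac1, lower in each cluster, did not keep its direction in cells without a gain, where it stood at 0.08. It passed 1.5-fold in Y-negative X-low cells (-0.68), over all filtered cells (-0.71), and when the primed epiblast-like cells (-0.67) or the Spry2-led cells (-0.605) were added.

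Pathway genes outside the members passed 1.5-fold in both directions between times, as did 6.61% (higher) and 13% (lower) of all genes. Of 38 ATF4 targets, 7 were at least 1.5-fold higher at time 2 and 5 lower, with a median of 0.25. The highest were genes of tRNA charging: Eprs on chromosome 1 (465 against 211 CPM at time 1), Aars on chromosome 8 (119.7 against 69.9 CPM) and Tars on chromosome 15 (123 against 74.2 CPM). Eif2b4, a subunit of the exchange factor of eIF2, stood at 45.7 against 24.8 CPM. The lowest was Ddit4, an inhibitor of mTORC1 signalling (18.2 against 85.5 CPM, -2.17), with Sesn3 (11.2 against 32.9 CPM) and Vegfa (5.11 against 14.3 CPM). Among 27 ER sensors and chaperones, 0 were higher and 4 lower (median -0.19), and the lower count is near the share over all genes. Among 17 genes of ER-associated degradation, 0 were higher and 4 lower (median -0.08). Early response genes differed most: 8 of 13 were lower and 2 higher, with a median of -0.76. Jun stood at 20.8 against 70.2 CPM at time 1, and Ier3 at 12.1 against 33.9 CPM. Their part in the lower Ddit3 at time 2 was not tested.

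Copy gains of chromosomes were called per cell: a chromosome counted as gained when its part of the autosomal UMIs reached 1.3 times the time 1 median. No member lies on chromosome 1 or 14, and Herpud1 is the one on chromosome 8. At time 2 the stem cells held 3500 cells without a gain, 3399 with a gain of chromosome 1, 1220 of 8, 1903 of 1 and 8, 2094 of 1 and 14, and 551 of all 3. A class is named by its calls only: chromosome 8 genes had a median log2 difference of 0.23 from the no-gain cells in the class called for 1 alone and 0.28 in that for 1 and 14. At time 1, 7359 cells had no gain, 100 a gain of 1 and 501 a gain of 8. Classes under 100 cells and cells with gains of other autosomes were left out. Over the 7 classes, 12 of 56 contrasts of a member with the no-gain cells of its library were at least 1.5-fold lower and 0 higher. Of the 12, 6 were of Xbp1, 5 of Chac1 and 1 of Ddit3. All classes of a library share its no-gain cells. The share over all genes of at least 5 CPM was 8.86%, and over the 50 contrasts of members at that level it was 14%. The mean level of Chac1 lies under 5 CPM in all 5 of its contrasts, outside that share.

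Xbp1 was lower in all 7 gain classes, and past 1.5-fold in 6. At time 2 it stood at 28.4 CPM without a gain, at 16.6 CPM with a gain of 1, 21.5 CPM with 8, 16.1 CPM with 1 and 8, 15.4 CPM with 1 and 14 and 15.3 CPM with all 3. The log2 differences were -0.74, -0.39, -0.78, -0.84 and -0.85. At time 1 it stood at 38.6 CPM without a gain, 24.9 CPM with a gain of 1 and 24.1 CPM with a gain of 8 (-0.61 and -0.65). Chac1 at time 2 stood at 5.56 CPM without a gain and between 2.52 and 3.76 CPM in the 5 gain classes, log2 differences from -0.90 to -0.46. At time 1 it was lower with a gain of 1 (2.61 against 5.20 CPM, from 15 UMIs) and higher with a gain of 8 (7.16 CPM). Ddit3 passed 1.5-fold in the cells with 1 and 14 (4.59 against 7.52 CPM, -0.61). Atf4, Asns and Hspa5 differed by at most 0.31 at time 2, all in the downward direction, and Trib3 by 0.15 to 0.45 downward.

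Beside these members, all genes past 1.5-fold made up 9.42% and 6.01% in the classes of time 1 with a gain of 1 and of 8. At time 2 they made up 7.92% for a gain of 1, 6.75% for 8, 8.95% for 1 and 8, 11.6% for 1 and 14 and 11.4% for all 3. Gain and no-gain cells of time 2 also differ in other ways. Of the no-gain cells, 69.1% had high X dosage and 52.7% were of the Jam2-led cluster, while in the classes with a gain of 1 at most 3.30% and 2.03% were. Among Y-negative X-low cells only (767 without a gain at time 2), 1 of 48 contrasts passed 1.5-fold, Chac1 in cells with a gain of 8 at time 1 (0.67). The class with a gain of 1 at time 1 fell under 100 cells in this setting and was left out. Xbp1 there remained below the no-gain cells by 0.37 with a gain of 1, by 0.43 with 1 and 8, by 0.48 with 1 and 14 and by 0.49 with all 3, with intervals that leave out 0. With a gain of 8 alone its difference was -0.07 (interval -0.20 to 0.06). Chac1 differed by -0.38 with a gain of 1, -0.03 with 8, -0.32 with 1 and 8, -0.39 with 1 and 14 and -0.32 with all 3, and its interval held 0 for a gain of 8 and for all 3. Among X-low cells of the largest cluster, 0 contrasts passed.

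**Figure D3:**
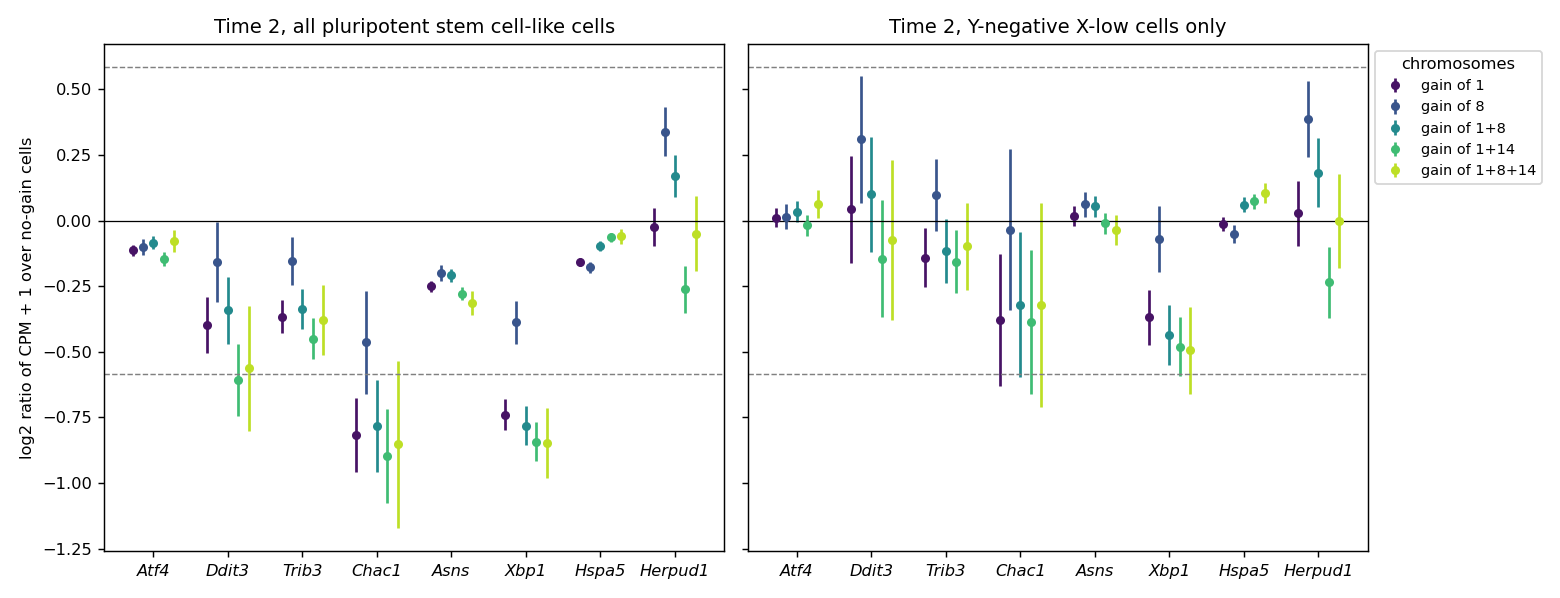
Log2 ratio of CPM plus 1 over the no-gain cells of time 2 (y axis) for each member (x axis) in 5 classes of chromosome gain, with 95% counting intervals; dashed lines mark 1.5-fold. On the left, in all pluripotent stem cell-like cells, Xbp1 and Chac1 pass 1.5-fold in 4 of 5 classes, and on the right, in Y-negative X-low cells, no member does.

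Herpud1, on chromosome 8, was set beside the genes of that chromosome. In cells with a gain of 8 alone it was 0.51 higher at time 1 (19.6 against 13.5 CPM) and 0.34 higher at time 2 (18.4 against 14.4 CPM). The medians over chromosome 8 genes were 0.45 (513 genes) and 0.37 (498 genes). With gains of 1 and 8 Herpud1 was 0.17 higher, where the chromosome 8 median was 0.33, and with all 3 gains it was -0.05, where the median was 0.32 and the lower quartile 0.14. In cells with 1 and 14 it was -0.26 (11.8 CPM), where chromosome 8 genes had a median of 0.28. Herpud1 lay near the median of its chromosome in cells gained for 8 alone and below it in the classes with further gains.

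Listed genes on the gained chromosomes were among the highest of the same contrasts. Eprs on chromosome 1 stood at 529 CPM with a gain of 1 and 346 CPM without a gain at time 2. Slc7a5, an amino acid transporter on chromosome 8, stood at 73.8 CPM with a gain of 8 and 53.7 CPM without. In cells with 1 and 14, Nupr1 (38.5 against 81.8 CPM), Ddit4 (11.0 against 27.2 CPM) and Cebpb (16.5 against 29.6 CPM), none of them on a gained chromosome, were lower. Of 38 ATF4 targets tested at time 2, between 6 and 11 were at least 1.5-fold lower in each class and 0 or 1 higher.

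X dosage was read in cells without a Y UMI, as the X-linked share of UMIs over its median in Y-positive cells. Cells at 1.2 times or more are called X-high (5073 at time 1 and 2790 at time 2) and the others X-low (2248 and 9183). None of the 8 members is X-linked. Xbp1 was above the X-low level in X-high cells of both libraries, at 41.6 against 29.7 CPM at time 1 (log2 difference 0.47) and 30.9 against 17.1 CPM at time 2 (0.82). Chac1 was near equal at time 1 (5.65 against 5.07 CPM, 0.13) and higher at time 2 (6.26 against 2.80 CPM, 0.93). Ddit3 was near equal at time 1 (0.06) and higher at time 2 (8.67 against 5.36 CPM, 0.61). At time 1, 0 of the 8 members passed 1.5-fold, beside 7.82% of all genes, and at time 2, 3 of 8 did (Xbp1, Ddit3 and Chac1, the last with a mean under 5 CPM), beside 11.7%. In Y-positive cells (512 and 933) the levels were 32.7 and 19.6 CPM for Xbp1 and 2.93 and 3.10 CPM for Chac1, so that at time 1 Chac1 lay below both X classes.

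The X contrast of time 2 was smaller within 1 cluster. Within the largest stem cell cluster of each library the differences at time 2 were 0.53 for Chac1, 0.38 for Xbp1 and 0.18 for Ddit3, and 0.47 for Xbp1 at time 1, all under 1.5-fold. At time 2 this rests on 385 X-high and 8810 X-low cells. In that setting Asns at time 1 was 0.74 lower in X-high cells, against 0.30 lower over all clusters. Among cells without a gain the time 2 differences were 0.66 for Chac1, 0.51 for Xbp1 and 0.61 for Ddit3. Of the listed genes, Nupr1 was higher in the X-high class of both libraries (63.1 against 32.4 CPM and 93.4 against 44.2 CPM), as was Atf3 (8.29 against 3.07 CPM and 11.3 against 3.87 CPM). Of 40 ATF4 targets tested at time 1, 6 were higher and 0 lower, and of 38 at time 2, 9 were higher and 0 lower.

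Across single stem cells the counts of Atf4, Ddit3, Trib3, Chac1, Asns and Herpud1 varied weakly together, and those of Hspa5 and Xbp1 with each other. Each cell was thinned to 10000 UMIs, and the correlations are weak, as sparse counts allow, so they are given as descriptions with no p. The median r over the 28 pairs was 0.06 at time 1 (8408 cells) and 0.04 at time 2 (13697 cells), beside 0.002 and -0.002 for pairs of a member with any of 2337 other genes of at least 50 CPM. Cells of 1 library share its preparation, and the clusters within it share part of these values. Within the Rhox9-led cluster of time 1 the median was 0.06, and within the Gm46332-led cluster of time 2 it was 0.03. Atf4, Trib3, Chac1, Asns and Herpud1 correlated with each other at r of 0.08 to 0.12 at time 1 and 0.03 to 0.09 at time 2. Ddit3 correlated with these 5 at 0.04 (Chac1) to 0.08 (Trib3) at time 1 and at 0.03 (Asns) to 0.10 (Herpud1) at time 2. Hspa5 and Xbp1 correlated at 0.10 and 0.11. Neither correlated above 0.04 with any other member, and Hspa5 with Asns stood at 0.02 and -0.08. With all UMIs scaled instead of thinned the values were larger: Hspa5 and Xbp1 stood at 0.24 and 0.27, and at time 2 Hspa5 with Herpud1 at 0.10, Xbp1 with Ddit3 at 0.09 and Xbp1 with Herpud1 at 0.09. The median over the pairs was then 0.16 and 0.09.

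**Figure D4:**
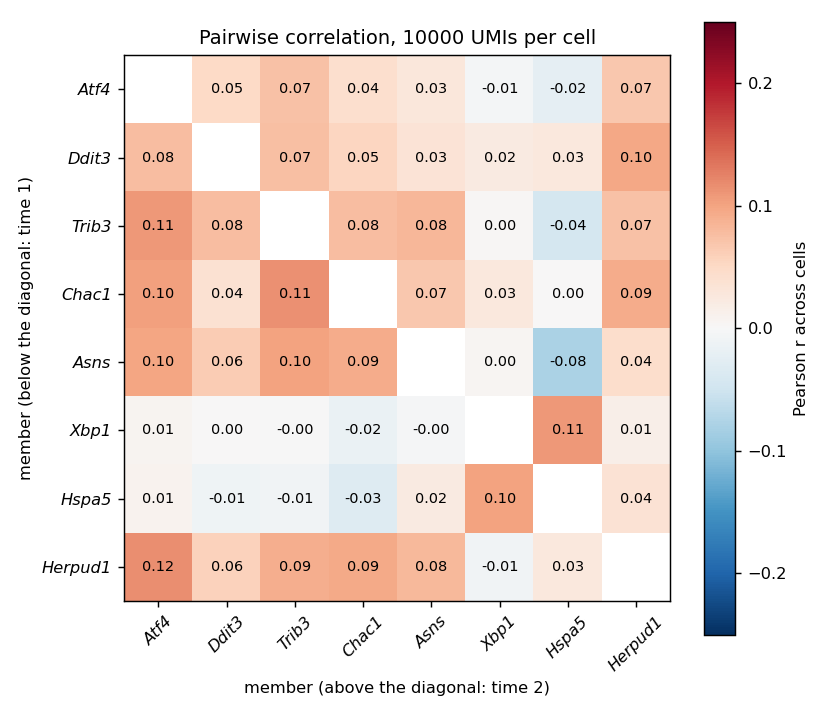
Pearson r across pluripotent stem cell-like cells for each pair of members, below the diagonal for time 1 and above it for time 2, at 10000 UMIs per cell. Herpud1 has r of 0.07 to 0.12 with Atf4, Trib3 and Chac1, and Xbp1 and Hspa5 have 0.10 and 0.11 with each other.

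The gene most like each member was sought among 2340 genes by the mean r of both libraries. Nupr1 was first for Atf4 (0.14), Trib3 (0.18), Chac1 (0.16), Asns (0.24) and Herpud1 (0.12), and second for Ddit3 (0.11), after 2410006H16Rik (0.13). Mthfd2, an enzyme of mitochondrial one-carbon metabolism, and Eif4ebp1, an inhibitor of cap-dependent translation, were next for Atf4 and Chac1. For Trib3 the next were Nars (0.12) and Eif4ebp1 (0.11), and for Herpud1 they were Atf4 and Mthfd2 (both 0.09). For Asns the next were Eif2s2 (0.21) and Chchd10 (0.20), and for Ddit3 it was Zfas1 (0.09). Eif2s2, Chchd10, Zfas1 and 2410006H16Rik are on none of the pathway lists. Atf4 itself ranked 99 for Asns, against 2 for Herpud1, 7 for Trib3, 9 for Chac1 and 14 for Ddit3. Hspa5 was most like Hsp90b1 (0.34), Calr (0.31) and Manf (0.29), which encode proteins that work in the ER. Xbp1 was most like Hspa5 (0.10), then the X-linked genes Klhl13 and Rhox5. Of 19 ATF4 targets in this search, 17 stood among the 50 genes most like Atf4, 17 for Trib3, 16 for Herpud1, 13 for Chac1, 13 for Asns, 3 for Ddit3 and 0 for Hspa5 and Xbp1. Of 12 ER sensors and chaperones, 8 stood among the 50 most like Hspa5 and 6 among those for Xbp1, and 0 for each of the other members.

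Stem cells with and without a Chac1 UMI were compared to give the sizes behind these values. A Chac1 UMI was present in 357 thinned cells at time 1 (4.25%) and 435 at time 2 (3.18%), whose median depths (52289 and 56143 UMIs) were close to those of the cells without (49329 and 52389). In cells with a Chac1 UMI, Trib3 stood at 33.9 against 13.1 CPM at time 1 and 34.3 against 17 CPM at time 2. Herpud1 stood at 31.2 against 13.1 CPM and 37.0 against 13.9 CPM, and Ddit3 at 22.7 against 11.0 CPM and 16.2 against 5.79 CPM. Nupr1, picked as the gene most like Chac1 in these same cells, stood at 154 against 47.8 CPM and 120.2 against 53.9 CPM. Asns and Atf4 were higher by 0.68 and 0.56 on the log2 scale at time 1 and by 0.48 and 0.37 at time 2. Hspa5 differed by -0.15 and 0.06, and Xbp1 by 0.03 and 0.21. The other splits differed among themselves at time 2. In cells with a Ddit3 UMI (814 cells), Hspa5 was 0.26 higher (interval 0.24 to 0.28), Xbp1 0.35 and Manf 0.28, while at time 1 Hspa5 and Xbp1 differed by 0.00 and 0.03. Within Gm46332-led, Jam2-led and Rhox9-led cells of time 2, r of Ddit3 with Xbp1 was -0.002, 0.05 and 0.05. That of Ddit3 with Hspa5 was 0.02, 0.03 and 0.03. Ddit3 and Xbp1 shared a Gm46332-led cell 0.86 times as often as the product of their single shares, which the interval held. In cells with a Herpud1 UMI, Hspa5 was 0.19 and Xbp1 0.20 higher at time 2, and 0.06 and 0.02 at time 1. In cells with a Trib3 UMI, Hspa5 differed by -0.12 and Xbp1 by 0.03 at time 2, and by -0.07 and -0.03 at time 1.

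**Figure D5:**
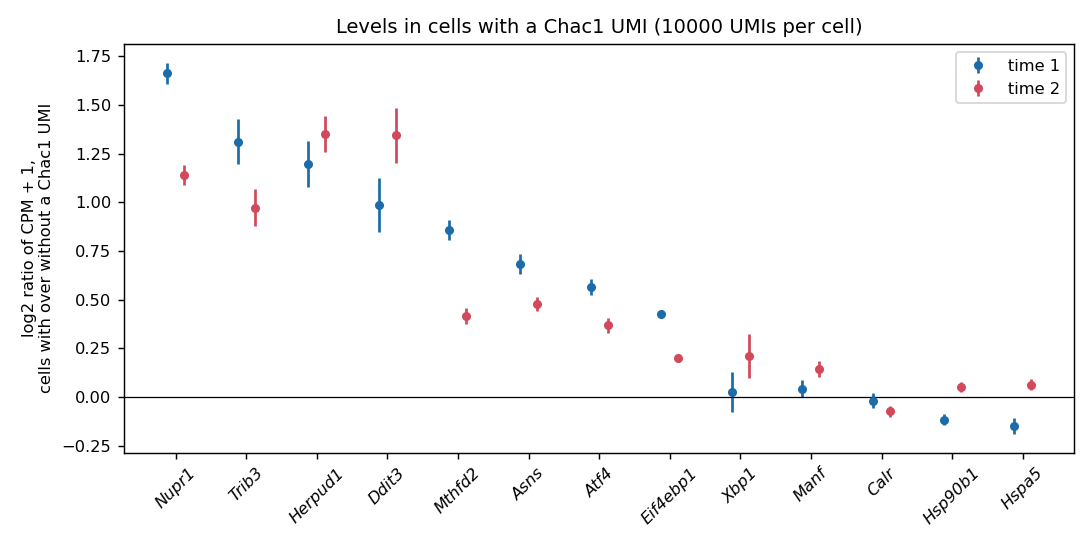
Log2 ratio of CPM plus 1 between stem cells with and without a Chac1 UMI (y axis), at time 1 (blue) and time 2 (red). Bars are 95% counting intervals. The x axis holds the other members and 6 pathway-list genes from among those most like a member. Nupr1, Mthfd2 and Eif4ebp1 were taken as the 3 genes most like Chac1 in these same cells, so their higher levels follow from that choice. Nupr1, Trib3, Herpud1 and Ddit3 lie between 0.97 and 1.66, while Hspa5, Hsp90b1 and Calr lie between -0.15 and 0.06, and Manf and Xbp1 at 0.04 and 0.03 at time 1 and at 0.14 and 0.21 at time 2.

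Chac1 and Trib3 were found in the same thinned cell 2.30 times as often at time 1 (100 cells, 1.19%, exact Clopper-Pearson interval 0.969% to 1.44%) and 1.85 times as often at time 2 (126 cells, 0.920%) as the product of their single shares. For Chac1 and Herpud1 the ratios were 2.16 and 2.02. For Xbp1 and Herpud1 they were 0.97 and 1.03, and for Chac1 and Xbp1 0.88 and 1.32. At time 2 the interval for Chac1 and Xbp1 (0.601% to 0.895%) left out the product of 0.558%. Within single clusters of time 2 it held the product. The ratios were 1.19 in Gm46332-led, 1.12 in Jam2-led and 1.57 in Rhox9-led cells. Within Jam2-led cells the ratios of Chac1 and Trib3 were 1.46 and 1.64. The interval at time 1 (28 cells, 1.58% to 3.40%) held the product of 1.62%. In Rhox9-led cells they were 2.56 and 2.34, and in Gm46332-led cells of time 2 1.80. The splits by a UMI of Chac1, Ddit3, Herpud1, Trib3 or Xbp1 were not made within clusters. Cells with an Xbp1 UMI (2565 and 2408) had Hspa5 at 294 against 245 CPM at time 1 and 389 against 306 CPM at time 2, and Herpud1 at 13.8 against 13.9 CPM and 16.7 against 14.2 CPM.

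Herpud1 was set beside the other members across cells and across clusters. Across single stem cells its r was 0.09 with Chac1 at both times, 0.12 and 0.07 with Atf4 and 0.06 and 0.10 with Ddit3, beside 0.03 and 0.04 with Hspa5. Across the 24 sums of clusters its level went with Hspa5 (r = 0.68, rho = 0.65), Xbp1 (r = 0.56, rho = 0.30) and Ddit3 (r = 0.42, rho = 0.43), while r was -0.25 with Trib3 and 0.01 with Chac1. Ddit3 and Asns had r = -0.66 and rho = -0.43 across the sums, and Asns and Xbp1 r = -0.41 and rho = -0.44. These sums come from 2 libraries and the Srgn-led and S100a4-led cells lie at their ends, so the values describe these clusters.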

How the data were processed

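Single-cell 3′ RNA libraries (10x, version 3.1 chemistry, per the labels' protocols) of 1 pool at 2 times were read with bcl2fastq 2.20.0.422 and Cell Ranger 6.1.2 on mm10/GRCm38, per the submitters' processing notes. The deposited values are unnormalised UMI counts per gene and barcode; intron counting is not given in the sources used here. Barcodes were kept as cells above 0.1 of the 99th percentile of the 20000 deepest barcodes (18315 and 18645 UMIs) if they had 1000 or more genes and no more than 10% of UMIs from mitochondrial genes. Scrublet's own threshold marked few cells, so the top 10% of its scores were removed, a choice made after seeing that. Cells were clustered with scanpy 1.11.5 (2000 variable genes, 30 components, 15 neighbours, Leiden resolution 0.5). The Spry2-led and Nanos3-led clusters were left unnamed after they were seen.

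UMIs were summed over cells and given as CPM with exact Poisson intervals, and compared as log2 of CPM plus 1 without p-values, since each time has 1 library. Genes with a mean of at least 5 CPM form the background. Gains need 1.3 times the time 1 median share. Cells with at least 2 Y-linked UMIs are Y-positive. Named genes are the 8 members, the 5 highest and 5 lowest listed genes of the time and gain comparisons, and the 3 genes most like each member; listed genes named for clusters and X classes were taken after their values were seen. Members and lists were chosen with earlier results of these data known. On simulated counts of 32285 genes, 130 of 130 genes changed 2-fold or more between times were called, and 0 of 8807 unchanged ones. These counts held counting error only, with no variation between libraries, lines or clusters. They check the calculation and give no rate of wrong calls between the 2 libraries. The alternatives included TMM scaling (edgeR 4.0.16), other populations, thresholds, filters and pseudocounts.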

Additional observations from a re-analysis of the deposited data

Results flagged for a closer look

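The following differences had opposite signs in the 2 libraries. None of them was tested, since each time has 1 library, and in each contrast both values lie under 1.5-fold.

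Asns was lower in X-high than in X-low stem cells at time 1 (log2 ratio -0.30) and higher at time 2 (0.33), a shift of 0.64. With a gain of chromosome 1, Asns was above the no-gain cells at time 1 (0.42) and below them at time 2 (-0.25), a shift of -0.67. With a gain of chromosome 8 the values were 0.13 and -0.20, a shift of -0.33. At time 1 the gain of chromosome 1 rests on 100 cells.

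Chac1 with a gain of chromosome 8 stood at 0.40 at time 1 and -0.46 at time 2, a shift of -0.86. For Atf4 the shift was -0.30 with a gain of chromosome 1 (0.18 and -0.11) and -0.15 with a gain of chromosome 8 (0.05 and -0.10). For Hspa5 with a gain of chromosome 1 it was -0.32 (0.16 and -0.16). The no-gain cells differ between libraries in cluster, 84.2% Rhox9-led at time 1 and 52.7% Jam2-led at time 2, and the part of this in the shifts was not tested.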

How the results depend on the processing

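The count of members past 1.5-fold between times, 2, became 1 in the Jam2-led cluster only (Ddit3), 1 in the Rhox9-led cluster only (Trib3), where Ddit3 reversed to 0.19, and 1 in cells without a called gain, where both calls ended and Asns passed instead (0.75), and 0 at 2-fold; the other alternatives gave 2 or 3, and the 2 in the Gm46332-led cluster only were Xbp1 and Chac1. The 12 of 56 contrasts of gain classes past 1.5-fold were all lower. With a gain threshold of 1.2 they were 8 of 64, and with 1.4 they were 8 of 48, all lower. TMM scaling and a total over other autosomes each gave 11 of 56, where Ddit3 with 1 and 14 fell short (-0.56 and -0.57). With all UMIs in the gain call 11 were lower and 1 higher (Herpud1 with a gain of 8 at time 1, 0.61). The class with a gain of 1 at time 1, whose Xbp1 and Chac1 contrasts are among the 12, fell under 100 cells in some settings. It was left out, and not measured, in Y-negative X-low cells and in the largest cluster. The count became 1 in Y-negative X-low cells: Chac1, higher with a gain of 8 at time 1 and not among the 12. It became 2 in the largest stem cell cluster, Xbp1 lower (-0.62) and Herpud1 higher (0.60) with a gain of 8 at time 1, and 0 in Y-negative X-low cells of that cluster, the last chosen after seeing the data, as were, for the time comparison, the Y-negative X-low cells, the added Nanos3-led and Spry2-led clusters and the Rhox9-led and Gm46332-led clusters alone. The count of 3 for X classes became 1 in the largest cluster, where all 3 ended and Asns at time 1 passed instead (-0.74). It was 2 at both other X thresholds, where Ddit3 at time 2 fell short (0.55 at 1.1 and 0.58 at 1.4), and 2 in cells without a gain, where Xbp1 did (0.51). The median correlation became 0.16 at time 1 and 0.093 at time 2 when all UMIs were scaled instead of thinned. Of single-member values past 1.5-fold in the time, gain and X contrasts, only that of Ddit3 between times changed sign under these alternatives. Cluster contrasts were followed by their count only, so their signs were not checked. That count, 44 of 192, became 54 of 192 (28.1%) after thinning and 45 of 192 with a pseudocount of 0.1. It was 55 of 256 at Leiden resolution 1, and 39 of 184 with members and pathway genes left out of the clustering. Values under 1.5-fold changed sign too, among them Chac1 between times (0.08 without a gain) and, for X classes in the largest cluster, Chac1 at time 1 (0.13 to -0.30), Hspa5 at time 2 (0.16 to -0.08) and Trib3 at time 1 (0.14 to -0.08). Among values of single members, 414 moved by less than their counting interval, and 1 reversed. A further 330 values were counted as moved by more. Among these is 1 share over all genes, with no minimum CPM, that is not a value of a member. No paired analysis was possible because each time has 1 library. Depth limits Chac1 most, which had 15 UMIs in the smallest gain class.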

Other observations

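Levels of some members in clusters outside the pluripotent stem cell-like group are given here, and not all of them passed 1.5-fold. In the two-cell-like cells (60 and 52), a state that shares transcripts with the cleavage embryo, Trib3 stood at 6.56 and 14.6 CPM against 15.5 and 17.1 CPM in the other cells, and Xbp1 at 16.6 and 14.6 CPM against 32.5 and 21.5 CPM. Both members were past 1.5-fold at time 1 and under it at time 2. All genes past 1.5-fold made up 29.3% and 15.9% there. In the unnamed Ctla2a-led cells (67 and 167), whose leading genes include the endothelial genes Kdr and Cdh5, Xbp1 stood at 49.3 and 62.0 CPM, rank 2 of 12 clusters in both libraries. Hspa5 stood at 247 and 476 CPM against 285 and 336 CPM, under 1.5-fold in both and in opposite directions. All genes past 1.5-fold made up 21.1% and 32.9% there. The Krt18-led cells of time 1 (70 cells, median 352474 UMIs and 0.101% mitochondrial UMIs) had Hspa5 at 94.9 against 289 CPM (log2 difference -1.59), where 51.9% of all genes passed 1.5-fold and their median was -0.49. In the Nanos3-led cells of time 2 (6163 cells), Herpud1 stood at 11.8 against 20.5 CPM, beside 8.79% of all genes past 1.5-fold.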
